A study of Mus musculus with 15 samples.

Results

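Cells of the virgin mouse mammary gland that carry the Wap-Cre mark were compared with basal cells on Affymetrix whole-genome arrays. The marked cells, called ALP after their label of alveolar luminal stem/progenitor cells, were lineage-negative cells positive for yellow fluorescent protein (YFP) from adult virgin Wap-Cre;R26Y females on a C57BL/6 background. The basal cells, called MaSC because the gate is enriched for mammary stem cells, were lineage negative, CD24 positive and CD29 high, and came from adult virgin wild-type C57BL/6 females. Both groups were taken by their sample titles, 3 arrays each, so that 6 of the 15 arrays of the series were members. The other 9 arrays were luminal progenitors (LP, CD61 positive) and mature luminal cells (ML, CD61 negative), sorted from the same 3 wild-type suspensions as MaSC, and alveolar luminal cells (AL), lineage-negative YFP-positive cells of Wap-Cre;R26Y females at midgestation. In Wap-Cre mice the Cre recombinase is driven by the promoter of Whey acidic protein, a milk protein gene, and R26Y is a reporter that Cre switches on for good, so the mark stays in descendants of a cell that once made Cre. Gate, genotype and reporter differed between ALP and MaSC and cannot be told apart here. Each MaSC array stood for 1 suspension, whereas for ALP the animals behind each array are not stated, so p-values measure the spread between samples, which may in part be technical.

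The mammary epithelium has an inner luminal layer, which makes milk, and an outer basal layer of myoepithelial cells, which contract to expel it and which rest on the basement membrane. Basal cells make the keratins of Krt5 and Krt14, the transcription factor p63 and smooth muscle proteins. Luminal cells make the keratins of Krt8 and Krt18, and their progenitors depend on the ETS factor Elf5 and carry the receptor Kit. Mature luminal cells instead hold the receptors for oestrogen and progesterone. The comparison asks how far the marked virgin cells stand from the basal layer, and in which genes.

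Marker lists were first read in every array, as the mean log2 intensity over the genes of a list on the array, dim ones included. The basal identity list stood at 12.11, 12.28 and 12.23 in the MaSC arrays and at 9.59, 9.64 and 11.02 in ALP replicates 1, 2 and 3. The luminal progenitor list stood at 11.55, 10.99 and 10.92 in MaSC and at 12.33, 12.23 and 12.22 in ALP. These levels placed MaSC on the basal and ALP on the luminal side, as labelled, with ALP replicate 3 between the other ALP arrays and MaSC for basal genes. ALP replicate 3 also carried transcripts of other cell types. Its leukocyte list was at 11.20, against 6.95 and 7.21 in the other ALP arrays and 6.27 to 6.60 in MaSC, and the myeloid list was at 11.67 against 7.36 and 7.70. The fibroblast list was raised in all 3 ALP arrays, at 11.32, 11.51 and 12.97 against 8.46 to 8.81 in MaSC, and the endothelial list likewise, at 7.78, 8.66 and 10.69 against 5.49 to 5.81. Replicate 3 thus stood apart in several lists, and stromal transcripts were present in the other ALP arrays as well. In MaSC the luminal identity list went from 12.51 in replicate 1 to 11.75 in replicate 3. Pearson correlations across genes were 0.968 between ALP replicates 1 and 2, 0.901 to 0.918 between replicate 3 and these, and 0.948 to 0.973 within MaSC. In sorted bulk samples, fewer cells of a type and less RNA per cell cannot be told apart.

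**Figure D1:**
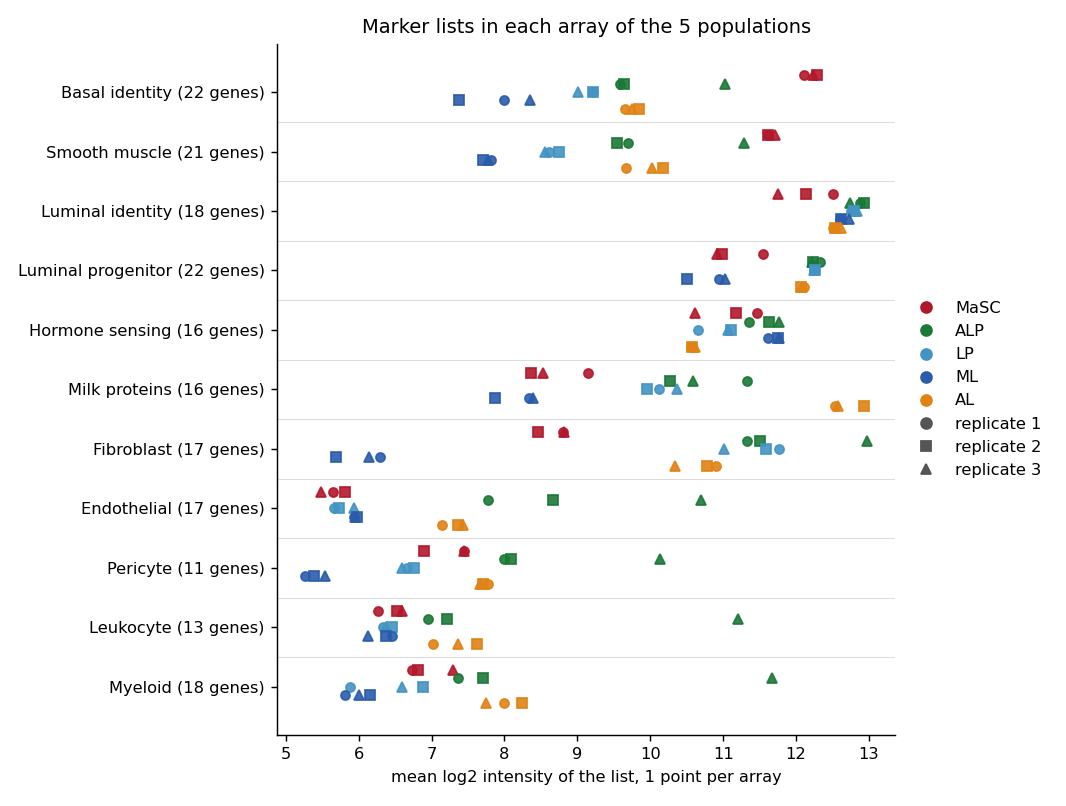
Mean log2 intensity (x axis) of 11 marker lists (y axis, with the number of genes) in each of the 15 arrays, coloured by population and shaped by replicate number. The 3 MaSC points lie furthest right in the basal and smooth muscle rows, and the ALP triangle, replicate 3, stands to the right of the other ALP points in those rows and in the fibroblast, endothelial, pericyte, leukocyte and myeloid rows.

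Of 12143 genes tested, 1349 (11.1%) differed between ALP and MaSC at an adjusted p under 0.05, with 605 (4.98%) higher and 744 (6.13%) lower in ALP. Of these, 463 (3.81%) were at least 2-fold higher and 503 (4.14%) at least 2-fold lower, 7.96% together. The MaSC mean lay below the arrays' median for 2 of the 503 lower genes (0.398%), 208 of the 463 higher genes (44.9%) and 9.96% of all genes, an order that the direction of the call itself favours. Without ALP replicate 3, 1836 genes (15.1%) passed, 629 higher (5.18%) and 1207 lower (9.94%), so that the share of calls higher in ALP went from 44.8% to 34.3%. In both fits 1084 genes passed and none of them changed direction. The count rested on other arrays too. Without MaSC replicate 2 the same limma test called 0 genes, with 2842 at an unadjusted p under 0.05, and without MaSC replicate 3, ALP replicate 2 or ALP replicate 1 it called 162, 139 and 575. All 1349 genes nevertheless kept their direction in each of the 6 fits that left out 1 array, and 1341 of them also passed in a fit over all 15 arrays, which called 38.4% of genes (21.7% higher and 16.7% lower). Intensities of ALP and MaSC did not overlap in 41.9% of all genes.

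**Figure D2:**
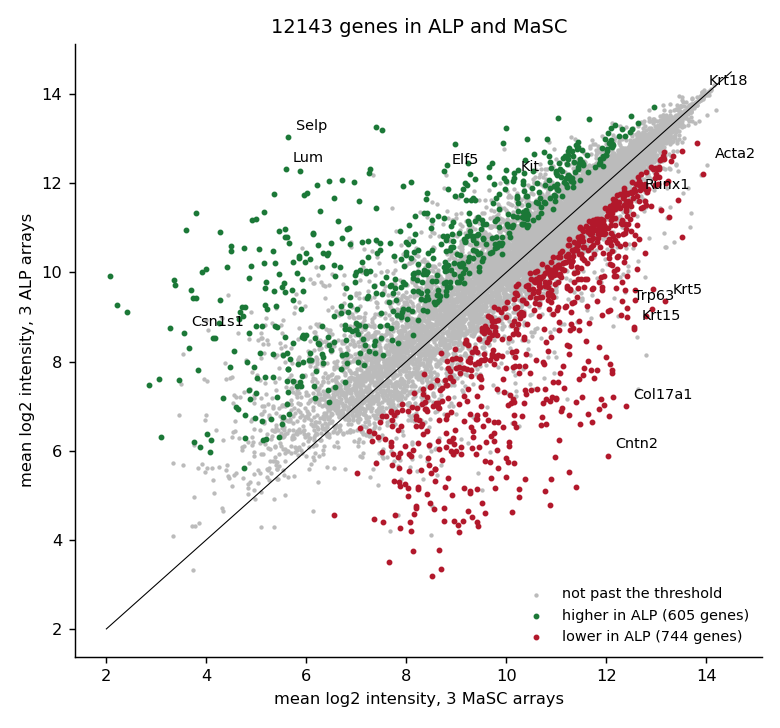
Mean log2 intensity of 12143 genes in the 3 ALP arrays (y axis) against the 3 MaSC arrays (x axis), with the line of equal level. Green points are the 605 genes higher and red points the 744 genes lower in ALP at an adjusted p under 0.05, and the genes lower in ALP lie at medium to high MaSC intensity, while many genes higher in ALP lie at low MaSC intensity.

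Many basal identity genes fell in ALP. Of 22 tested, 12 were lower, none was higher and 10 did not pass, with a median log2 difference of -2.43 beside 0.07 over all genes, and without ALP replicate 3 there were 16 lower, at a median of -2.92. Krt5, a keratin of the basal layer, read 9061, 8894 and 9884 in MaSC and 364, 317 and 2441 in ALP. The groups did not overlap, and the highest ALP value was that of replicate 3. This was a log2 difference of -3.82 ± 0.81 (SE, adjusted p = 0.0409), or 14.1-fold, and 27.3-fold without replicate 3 (adjusted p = 6.49e-04). Krt15, another basal keratin, was more even, at 4883, 6222 and 7162 against 305, 437 and 633, a difference of -3.78 ± 0.30 (adjusted p = 0.0085). For Krt14 the values were 13199, 13476 and 13007 against 1954, 1342 and 6459, which did not pass with all 6 arrays (-2.36 ± 0.58, adjusted p = 0.0585) but passed without ALP replicate 3 (-3.03 ± 0.20, adjusted p = 0.00193). The 3 Krt14 probe sets fell by 5.15-fold to 43.4-fold, and 2 passed with all 6 arrays when all probe sets were tested. All 3 ALP arrays were below all MaSC arrays for each of these keratins.

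Some transcription factors and surface genes of the basal layer fell as well. Others of the list did not, and 2 of the 22 genes had a positive difference. No probe set of Egfr, Lgr6, Procr or Tspan8 passed when all probe sets were tested. Those of Egfr differed by only 1.06-fold to 1.31-fold, and those of Tspan8 by 1.27-fold to 2.97-fold. Trp63, which encodes p63, the factor that maintains basal epithelia, read 4909, 7822 and 4169 in MaSC against 413, 431 and 1165 in ALP (-3.20 ± 0.48, adjusted p = 0.0211). Snai2, the Slug repressor, read 6976, 7298 and 7096 against 257, 350 and 1535 (-3.78 ± 0.68, adjusted p = 0.0292). Id4, an inhibitor of helix-loop-helix factors, read 4976, 5533 and 5833 against 539, 726 and 2305 (-2.49 ± 0.55, adjusted p = 0.0448). All 3 Id4 probe sets passed, with falls of 5.63-fold to 20.8-fold. In each of the 3 genes the ALP arrays lay apart from MaSC, replicate 3 highest. Lgr5, a receptor for R-spondins that marks stem cells in several epithelia, read 1963, 1762 and 1340 against 66.6, 65.1 and 203, a 14.8-fold difference with 16 added to each intensity, since ALP was below the arrays' median (adjusted p = 0.0137). Nrg1, a ligand of ErbB receptors, did not follow replicate 3, since it read 808, 1616 and 1142 in MaSC and 269, 99.7 and 96.3 in ALP (-3.06 ± 0.48, adjusted p = 0.0232, and 7.49-fold with 16 added).

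The genes with the largest falls in ALP were chosen by a rule given under the processing, and all 10 read at most 177 in ALP replicates 1 and 2. Cntn2, a contactin known from axons, read 4139, 4043 and 4481 in MaSC and 38.2, 48.9 and 111 in ALP, the latter below the medians of the ALP arrays (161.7 to 209.9), so its fold is given with 16 added to each intensity, as 55.3-fold (adjusted p = 0.00819). On that scale Brinp1, a protein known from neurons, was 51.2-fold lower, Col17a1, the transmembrane collagen of hemidesmosomes, 36.0-fold, and Wif1, a secreted Wnt inhibitor, 35.2-fold. The homeobox factor Irx4 (34.0-fold), Nipal4 (32.6-fold), Tmem200a (32.5-fold), the potassium channel Kcnq5 (32.5-fold), the teneurin Tenm2 (28.4-fold) and neuropeptide Y, Npy (26.8-fold), completed the set. Several of these are better known from nerve cells than from epithelium. By the moderated t statistic the clearest falls were in Kcnf1, Krt42, Bnc1, Brinp1 and Emid1, each with an adjusted p of 0.00819, and in Krt42, a keratin, the MaSC arrays read 3437, 3525 and 4223 against 312, 266 and 395. In Krt42 ALP replicate 3 stood close to the other ALP arrays. Bnc1, a zinc finger factor of basal keratinocytes, likewise read 4783, 5562 and 6167 against 406, 600 and 544.

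Genes of the basement membrane and its receptors fell in part. Of 22 tested, 7 were lower and none higher, with a median of -0.91, and without ALP replicate 3 there were 13 lower and 1 higher. Lama3 and Lamb3, chains of the laminin that anchors hemidesmosomes, were the clearest. Lama3 read 5431, 5864 and 7261 in MaSC and 698, 645 and 1027 in ALP, and Lamb3 read 4365, 4405 and 6753 against 554, 780 and 649. The differences were -2.99 ± 0.22 and -2.95 ± 0.23 (adjusted p = 0.0085 for both), and ALP replicate 3 stood close to the other ALP arrays in Lamb3. Lama1 was 12.5-fold lower (adjusted p = 0.0195) and Col7a1, the anchoring fibril collagen, 10.2-fold (adjusted p = 0.0256), each with 16 added. Col4a6, a chain of network collagen, fell only 1.93-fold, and Itga3, the integrin subunit that binds these laminins, 2.25-fold. The genes gained without replicate 3 included Col4a1 and Col4a2, in which ALP replicates 1 and 2 read 2137 to 3854 and replicate 3 read 10637 and 9451, against 8671 to 11297 in MaSC.

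Smooth muscle genes, the contractile set of myoepithelial cells, gave different counts with and without replicate 3. Of 19 tested, 4 were lower and 1 higher with all 6 arrays, at a median of -1.72, and 15 were lower and 1 higher without ALP replicate 3, at a median of -2.20. The fit over all 15 arrays, which keeps replicate 3, called 13 lower and 2 higher, with Acta2, Cnn1 and Myl9 among the lower (adjusted p = 0.00877, 0.00162 and 0.00474). Acta2, smooth muscle actin, read 16568, 16933 and 16364 in MaSC and 3931, 3306 and 12157 in ALP. Cnn1, calponin, read 5775, 6071 and 7270 against 54.9, 62.2 and 1384. Replicate 3 thus kept ALP and MaSC apart in both genes but widened the spread within ALP. By these probe sets neither passed with the 6 arrays (adjusted p = 0.095 and 0.058), and both did without replicate 3 (-2.20 ± 0.14, adjusted p = 0.00173, and -6.76 ± 0.16, adjusted p = 6.49e-04). Of the 2 Acta2 probe sets, lower by 3.07-fold and 4.51-fold, 1 passed with the 6 arrays when all probe sets were tested. Probe sets of Mylk (2 of 3), Myh11 (1 of 2), Tpm1 (1 of 3), Tpm2 (1 of 4), Cald1 (2 of 5) and Srf (1 of 2) passed there too. The 6-array counts thus depend in part on the probe set chosen. With 16 added, Cnn1 was 32.1-fold lower over the 6 arrays. In 12 of the 19 genes replicate 3 lay above the other ALP arrays and below all MaSC arrays. Myl9, a myosin light chain, read 10137, 10234 and 11221 against 1255, 641 and 5613 (adjusted p = 0.0836, and 0.00365 without replicate 3). By the probe set that stood for each gene, the members that passed with all 6 arrays were Smtn, Lmod1, Flna and Pgm5, lower, and Ldb3, higher. Smtn, smoothelin, read 4084, 3915 and 6671 against 1515, 1168 and 1245 (-1.87 ± 0.25, adjusted p = 0.0165). Ldb3, a protein of muscle Z-discs, ran against the list, at 144, 202 and 37.2 in MaSC and 1365, 1049 and 976 in ALP (3.45 ± 0.65, adjusted p = 0.0325).

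Serum response factor, with its partner myocardin, binds the CArG box, CC and GG around 6 bases of A or T, in many smooth muscle genes. RefSeq promoter windows of 300 bases (GRCm38.p6) were matched for 17 of the 21 list genes, and 4 of these genes, Myl9, Ldb3, Srf and Vcl, held a CArG box on either strand, where 1.63% of all 32851 windows did. The windows of Myl9 (chr2:156775214-156775513, + strand) and Ldb3 (chr14:34588632-34588931, - strand) are shown with the box in capitals, because these members had differences of opposite sign, though Myl9 passed among the ALP and MaSC arrays only without replicate 3.
Myl9: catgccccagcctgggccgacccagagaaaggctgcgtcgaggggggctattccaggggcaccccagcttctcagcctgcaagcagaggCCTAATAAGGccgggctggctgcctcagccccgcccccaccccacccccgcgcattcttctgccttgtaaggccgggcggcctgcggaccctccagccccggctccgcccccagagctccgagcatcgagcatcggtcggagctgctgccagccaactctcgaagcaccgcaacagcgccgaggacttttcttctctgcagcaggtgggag
Ldb3: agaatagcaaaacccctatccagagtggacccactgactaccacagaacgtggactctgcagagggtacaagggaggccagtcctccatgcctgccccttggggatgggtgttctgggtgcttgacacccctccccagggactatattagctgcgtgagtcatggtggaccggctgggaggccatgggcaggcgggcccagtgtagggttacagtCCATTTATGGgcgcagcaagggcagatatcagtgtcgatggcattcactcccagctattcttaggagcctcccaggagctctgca
A match here describes the letters and is no evidence of binding.

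**Figure D3:**
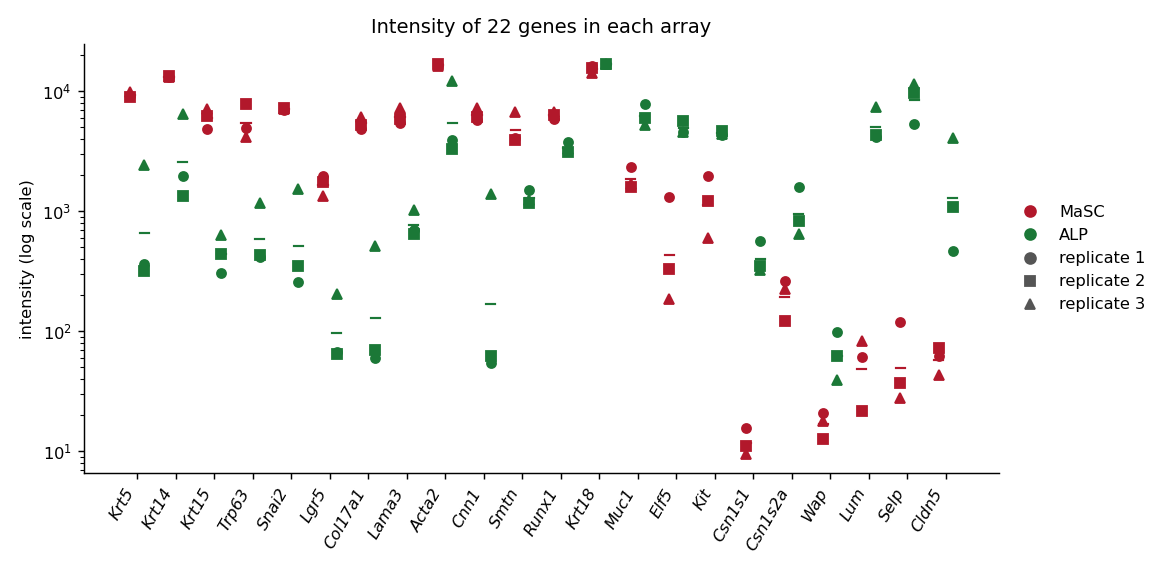
Intensity (y axis, log scale) of 22 genes in each MaSC array (red) and ALP array (green), with replicate numbers as marker shapes and the geometric mean as a short line. From Krt5 to Cnn1 the green triangles of ALP replicate 3 stand above the other ALP points in most genes, whereas Smtn, Runx1, Elf5, Kit and Csn1s1 show ALP replicate 3 close to the other ALP arrays.

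Signalling lists gave calls for some members with the 6 arrays, where 4.98% of all genes were higher and 6.13% lower. The fit over all 15 arrays called 2 of 28 Wnt genes higher and 12 lower. Of 15 Notch genes it called 9 higher and 4 lower, where it called 21.7% of all genes higher and 16.7% lower. Among 28 Wnt genes 5 were lower and none higher in ALP, at a median of -0.39. Without ALP replicate 3 there were 10 lower, where 9.94% of all genes were. The ligands Wnt10a (3260, 3610 and 4663 in MaSC against 100, 45.6 and 626 in ALP, adjusted p = 0.0377) and Wnt11 (1425, 1065 and 1635 against 168, 261 and 551, adjusted p = 0.0388) were lower. So were the secreted Dkk3, at 6091, 5176 and 6935 against 231, 242 and 1380 (adjusted p = 0.0336), the inhibitor Wif1 and the receptor Fzd3. The other 23 Wnt genes did not pass, and 10 of the 28 had a positive difference. In the Notch pathway, where ligands on one cell activate receptors on its neighbour, the 15 genes tested split. Both ligands called are also in the basal list. The ligands Jag1 and Jag2 were lower, Jag1 at 10522, 11750 and 11022 in MaSC and 2109, 2759 and 5416 in ALP (-1.81 ± 0.36, adjusted p = 0.036) and Jag2 at 2895, 3063 and 4627 against 106, 87.0 and 835 (-4.13 ± 0.90, adjusted p = 0.0441). The receptor Notch1, the targets Hey1 and Hey2, and Dtx1 were higher. Hey1 read 1049, 1095 and 906 against 3469, 5419 and 6654 (2.30 ± 0.26, adjusted p = 0.0129), and Hey2 was 3.34-fold higher with 16 added (adjusted p = 0.0292). Without ALP replicate 3, Notch1 no longer passed (adjusted p = 0.0705), and 4 Notch genes were lower.

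Of 29 growth factor genes 2 were higher and 4 lower in ALP, where 4.98% of all genes were higher and 6.13% lower. Nrg2 was the clearest fall, at 339, 434 and 377 in MaSC against 36.1, 30.1 and 59.3 in ALP (-3.25 ± 0.28, adjusted p = 0.0085, and 7.03-fold with 16 added). The higher members were Igf1 and Igf2, the insulin-like growth factors. Igf1 read 182, 119 and 107 in MaSC and 2080, 2690 and 5266 in ALP (4.54 ± 0.40, adjusted p = 0.0085), and Igf2 read 41.4, 23.3 and 33.7 against 248, 235 and 1523 (3.81 ± 0.78, adjusted p = 0.0388, and 9.70-fold with 16 added). Both are also genes of stromal cells, and ALP replicate 3 had the highest value of each. Of 25 axon guidance genes, Ntn1, netrin 1, rose 2.64-fold (adjusted p = 0.0268) and Sema5a fell 6.68-fold (adjusted p = 0.0294), and without ALP replicate 3 there were 7 lower. The 1 call each way among 25 genes stands beside 4.98% higher and 6.13% lower over all genes.

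Few luminal identity genes passed with the 6 arrays, where 4.98% of all genes were higher in ALP and 6.13% lower. Of 18 tested 3 were higher in ALP, none was lower and 15 did not pass, at a median of 0.71, and 17 of the 18 had a positive difference. Muc1, a mucin of the apical membrane, read 2343, 1580 and 1691 in MaSC and 7777, 5969 and 5275 in ALP (1.76 ± 0.22, adjusted p = 0.0156). Cldn1, claudin 1, read 3164, 2185 and 2047 against 7825, 7147 and 5431 (1.47 ± 0.23, adjusted p = 0.023), and Elf3, an epithelial ETS factor, rose 3.44-fold (adjusted p = 0.0331). The luminal keratins were bright in both groups. Krt8 read 14254, 12950 and 13366 in MaSC and 15172, 15672 and 14659 in ALP (0.17 ± 0.11, adjusted p = 0.314), and Krt18 read 16298, 15714 and 14294 against 17006, 16870 and 16842 (adjusted p = 0.421). The brightest probe set on any array of these groups read 22252, so both keratins sat near the top of the scale, where differences may be compressed. In 16 of the 18 luminal identity genes MaSC replicate 1 was the highest MaSC array, and the part of luminal cells in that array was not tested.

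Luminal progenitor genes gave more calls, where 4.98% of all genes were higher in ALP and 6.13% lower. Of 22 tested 7 were higher and 1 lower, at a median of 0.61. Elf5, the ETS factor that directs alveolar fate, read 1325, 330 and 184 in MaSC and 4608, 5677 and 4581 in ALP (3.51 ± 0.72, adjusted p = 0.0389). Its ALP arrays were close together, and the spread lay in MaSC. Kit read 1980, 1227 and 598 against 4332, 4651 and 4414 (adjusted p = 0.0444) and Cd14, a co-receptor for lipopolysaccharide, 5855, 2683 and 2176 against 10997, 11556 and 10675 (adjusted p = 0.0425). Without ALP replicate 3 these 3 genes missed the threshold, at adjusted p of 0.0569, 0.0677 and 0.0627, although their log2 differences moved little, to 3.57, 1.99 and 1.80. The second probe set of Elf5 gave 3.24 (adjusted p = 0.0142). Lbp, which binds lipopolysaccharide, read 215, 50.6 and 91.2 in MaSC and 2435, 1564 and 3052 in ALP (4.51 ± 0.57, adjusted p = 0.0154, and 19.3-fold with 16 added), and the folate receptor Folr1 (6.64-fold) and the GABA receptor subunit Gabrp (5.33-fold) passed with and without replicate 3. Slpi, a secreted protease inhibitor placed in this list, fell, from 15610, 16213 and 15252 to 4196, 3076 and 8187 (-1.73 ± 0.36, adjusted p = 0.0409).

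Hormone-sensing genes gave few calls, where 4.98% of all genes were higher in ALP and 6.13% lower. Of 16 tested 1 passed, Cited4, at 294, 161 and 99.1 in MaSC and 489, 1005 and 820 in ALP (adjusted p = 0.0448), and none passed without ALP replicate 3 by the same limma test (2 at an unadjusted p under 0.05). Esr1, the oestrogen receptor, read 6683, 5090 and 2779 in MaSC and 5033, 6650 and 7894 in ALP (0.49 ± 0.37, adjusted p = 0.382). Pgr, the progesterone receptor, read 5376, 3853 and 1343 against 4535, 6951 and 6116 (adjusted p = 0.278). The MaSC arrays spanned a wide range in both, overlapping ALP in each. Foxa1 and Cited1 overlapped too, at 981 to 4731 in MaSC against 4458 to 6457 in ALP for Foxa1, and 678 to 2697 against 2352 to 4013 for Cited1. Gata3 was level, at 5224, 5413 and 5370 against 5405, 6485 and 5365 (0.10 ± 0.12, adjusted p = 0.585). Its direction turned to -0.08 when each array was centred on its median.

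Many milk protein genes rose in ALP. Of 16 tested 9 were higher and none lower (8 higher without ALP replicate 3), at a median of 1.83. The list's level was highest in ALP replicate 1, at 11.33, 10.27 and 10.58 in the ALP arrays against 9.14, 8.37 and 8.53 in MaSC. Csn1s1, alpha-S1-casein, read 15.5, 11 and 9.52 in MaSC and 562, 349 and 327 in ALP, which with 16 added is 14.9-fold (5.09 ± 0.29 without, adjusted p = 0.00819). Csn1s2a, another casein, read 263, 122 and 223 against 1587, 834 and 651 (2.30 ± 0.44, adjusted p = 0.0337), and Lalba, alpha-lactalbumin, 9.12, 28.3 and 11.1 against 370, 168 and 185 (3.99 ± 0.53, adjusted p = 0.0165, and 7.80-fold with 16 added). The 2 caseins were dim in ALP beside pregnancy, since AL arrays averaged 15650 for Csn1s1 and 17017 for Csn1s2a. Lalba averaged only 369 in AL (220 to 666), a range that overlapped ALP. Csn2, beta-casein, was uneven, at 24.4, 27.4 and 61.7 in MaSC and 1198, 97.1 and 425 in ALP, and did not pass (adjusted p = 0.0763). Wap, whose promoter drives the Cre, read 20.8, 12.7 and 17.9 against 98.6, 62.1 and 39.4, below the median of every ALP array, where AL averaged 6059. The Wap difference passed (1.89 ± 0.38, adjusted p = 0.0375) and was 2.40-fold with 16 added. Xdh, needed to secrete milk fat globules, rose 2.43-fold, from 2154, 1626 and 2416 to 4966, 4529 and 5427 (adjusted p = 0.0187).

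Prolactin acts on caseins through STAT5, which binds TTCNNNGAA. Of 17 milk protein genes 12 had a RefSeq promoter window, and 4 of these, Csn1s1, Csn1s2a, Csn2 and Glycam1, held the motif on either strand, where 8.3% of all windows did. The windows of the first pair (chr5:87665958-87666257, + strand, and chr5:87774200-87774499, + strand, GRCm38.p6) are shown with the motif in capitals, because both caseins rose in ALP.
Csn1s1: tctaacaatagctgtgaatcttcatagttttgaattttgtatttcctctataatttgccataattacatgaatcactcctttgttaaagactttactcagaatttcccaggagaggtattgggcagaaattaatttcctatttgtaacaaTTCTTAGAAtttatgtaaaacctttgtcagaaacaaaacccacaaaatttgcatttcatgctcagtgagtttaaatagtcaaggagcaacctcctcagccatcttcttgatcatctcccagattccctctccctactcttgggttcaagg
Csn1s2a: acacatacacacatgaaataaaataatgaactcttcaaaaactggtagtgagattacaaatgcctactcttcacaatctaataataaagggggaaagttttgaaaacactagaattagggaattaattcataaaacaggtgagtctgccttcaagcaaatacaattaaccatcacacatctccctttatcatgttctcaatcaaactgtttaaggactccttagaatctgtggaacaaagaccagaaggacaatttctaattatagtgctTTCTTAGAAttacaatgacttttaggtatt
In Csn1s2a the motif lay after the start site, and the match is again a description only.

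Other epithelial lists gave some calls, where 4.98% of all genes were higher and 6.13% lower. Of 19 tight junction and polarity genes 5 were higher and none lower, at a median of 1.00, and 17 had a positive difference. The fit over all 15 arrays called 13 of them higher and none lower, where it called 21.7% of all genes higher. Without ALP replicate 3 there were 4 higher, and Tjp3 and Marveld2 missed the threshold (adjusted p = 0.0733 and 0.0568). Clearest were Cldn1 and Marveld3, a tight junction membrane protein, at 596, 367 and 227 in MaSC and 1586, 1774 and 1091 in ALP (adjusted p = 0.0365). Of 24 innate defence genes 4 were higher, Lbp and Cd14 among them, and 2 lower. S100a8, a calcium-binding alarmin, rose from 279, 259 and 340 to 2815, 1077 and 2131 (adjusted p = 0.0178), and Chil1 fell 1.73-fold (adjusted p = 0.0357). Of 23 lipid genes 5 were higher and 2 lower, and the members did not move as 1 pathway. Fabp4 and Cd36, which handle fatty acids and are also made by adipocytes and vessels, rose 46.5-fold and 28.3-fold with 16 added, while Fabp3, a fatty acid carrier of milk-secreting cells, fell from 847, 995 and 1143 to 115, 124 and 278 (adjusted p = 0.018). Of 16 cholesterol genes Insig1 and Dhcr7 were higher, where 4.98% of all genes were. Of 24 amino acid genes Psph and Slc7a11 were lower, where 6.13% of all genes were. Without ALP replicate 3 Dhcr7 and Slc7a11 missed the threshold (adjusted p = 0.0749 and 0.0568).

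Stromal genes made up the largest rises. The 10 genes chosen for size were Selp, Pi16, Lum, Aspn, Aqp1, Ackr1, Dpt, Cd93, Fabp4 and Abcc9, known from vessels, fibroblasts, pericytes or fat, with folds of 46.3 to 123 with 16 added. Selp, the P-selectin of endothelium and platelets, read 120, 36.9 and 28 in MaSC and 5289, 9728 and 11476 in ALP (adjusted p = 0.0085). Lum, lumican, a matrix proteoglycan, read 61.2, 21.7 and 83.7 against 4144, 4301 and 7341 (adjusted p = 0.0085). That their groups do not overlap, with or without replicate 3, was part of the rule that chose them. Of 17 fibroblast genes 11 were higher and none lower, at a median of 3.26, and without ALP replicate 3 there were 11 higher and 2 lower, at a median of 2.97. Col3a1, a fibrillar collagen, read 898, 1056 and 1122 in MaSC and 7496, 8522 and 14494 in ALP (3.26 ± 0.28, adjusted p = 0.0085). Pdgfra, a receptor that defines many fibroblasts, read 1361, 1339 and 962 against 2038, 2433 and 5979 and did not pass (adjusted p = 0.102, and 0.0571 without replicate 3).

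Many endothelial genes rose as well. Of 12 tested 7 were higher and none lower, at a median of 3.94, and 9 were higher without ALP replicate 3, at a median of 3.06. Cldn5, the claudin of endothelial junctions, read 61.8, 72.4 and 43.6 in MaSC and 469, 1092 and 4103 in ALP (4.47 ± 0.79, adjusted p = 0.0286, and 3.63 ± 0.43, adjusted p = 0.00859 without replicate 3), or 17.6-fold over all 6 arrays with 16 added. Tek, an angiopoietin receptor, read 13.6, 20.9 and 14.1 against 398, 717 and 4382. Both genes were graded within ALP, replicate 3 highest. Cldn5 and Emcn, another gene called higher, were above the arrays' median only in ALP and AL, so the filter kept them through these arrays alone. At 43.6 to 72.4 and 28.5 to 45.6 in MaSC they were hardly open to a call lower in ALP. That none was lower thus says little for such genes. Pecam1, the gene of the CD31 antigen used to remove vessels from the sort, was too dim to be tested, at 15.9, 12.6 and 13.5 against 110, 250 and 928. Of 5 pericyte genes Rgs5 and Abcc9 were higher and Mcam lower. Among 20 mesenchymal factor and matrix genes 6 were higher and 2 lower, at a median of -0.06, and the members ran in opposite directions. Without ALP replicate 3 there were 7 higher and 6 lower, at a median of -0.36. Twist2 rose, at 12.4, 3.44 and 1.76 in MaSC against 382, 1091 and 2166 in ALP (46.1-fold with 16 added, adjusted p = 0.0138), as did Twist1, Zeb1, Col1a1, Col1a2 and Col3a1, while Snai2 and Cdh2, N-cadherin, fell. The part of stromal cells in these rises was not tested.

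Leukocyte genes did not pass with the 6 arrays of ALP and MaSC. By limma 0 of 9 leukocyte, 0 of 12 myeloid, 0 of 2 T cell and 0 of 2 B cell genes tested did (1, 1, 2 and 0 at an unadjusted p under 0.05), with medians of 2.49, 2.16, 2.43 and 1.72, and 2 leukocyte genes and 1 myeloid gene were higher without ALP replicate 3. In the fit over all 15 arrays 5, 3, 2 and 1 of these genes were higher in ALP and 0 lower. Ptprc, the gene of the CD45 antigen used to remove leukocytes, read 19.1, 15.7 and 24.0 in MaSC and 43.3, 58.8 and 2795 in ALP. Lyz2, a lysozyme of myeloid cells, read 176, 476 and 299 against 404, 536 and 10979. Replicate 3 alone was high in both genes. All 12 myeloid and all 9 leukocyte genes tested were highest there within ALP, as were 53.1% of all genes tested. Cd53, a leukocyte tetraspanin, was modestly higher in the other ALP arrays as well, at 49.5, 87.5 and 79.4 in MaSC and 287, 285 and 7971 in ALP. The filter kept it through ALP and AL arrays alone, so a call lower in ALP was hardly open to it. It did not pass with these 6 arrays (adjusted p = 0.136), but did without replicate 3 (2.03 ± 0.28, adjusted p = 0.013) and in the fit over all 15 arrays (adjusted p = 0.0124).

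**Figure D4:**
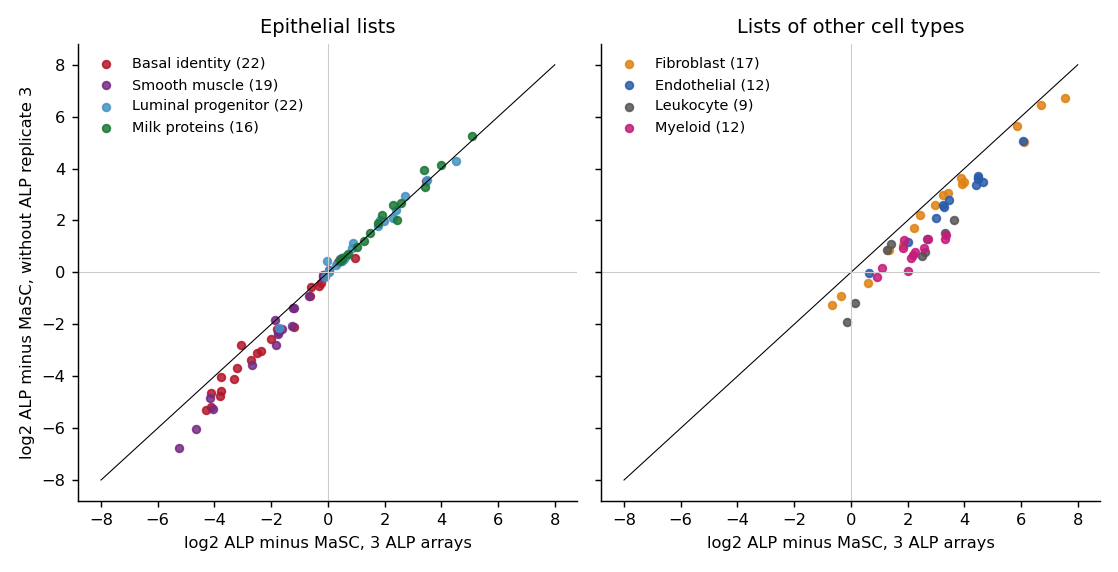
Log2 difference of list members between ALP and MaSC with 3 ALP arrays (x axis) and without ALP replicate 3 (y axis), for 4 epithelial lists (left) and 4 lists of other cell types (right), with the number of genes tested and the line of equality. Most basal and smooth muscle genes lie below the line, further from 0 without replicate 3, luminal progenitor and milk genes lie near it, and most leukocyte and myeloid genes drop towards 0.

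Some immediate early and heat shock genes, which also respond to tissue dissociation, rose in ALP, where 4.98% of all genes were higher. Of 24 tested 7 were higher, none was lower and 17 did not pass, at a median of 0.36, and without ALP replicate 3 there were 6 higher and 1 lower. Hspa1a, an inducible chaperone, read 795, 830 and 905 in MaSC and 3267, 7274 and 7272 in ALP (2.73 ± 0.34, adjusted p = 0.0152). Btg2 (4.44-fold), Zfp36 (2.21-fold) and Atf3 (2.20-fold), all early response genes, rose with and without replicate 3. Their part in other differences was not tested. No gene of the cell cycle (29 tested), respiratory chain (25), interferon (20), Schwann cell (6) or housekeeping (10) lists passed by limma with the 6 arrays (1, 1, 3, 1 and 1 at an unadjusted p under 0.05), whereas the fit over all 15 arrays called 3, 1, 7, 1 and 1 in either direction, and the housekeeping median was 0.07, as over all genes.

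Runx1, the transcription factor around which the study was built, was lower in ALP. It read 5859, 6306 and 6725 in MaSC and 3756, 3093 and 3276 in ALP (-0.90 ± 0.13, adjusted p = 0.0186), a 1.87-fold difference that was 1.84-fold without ALP replicate 3 (adjusted p = 0.0239). By this probe set the groups did not overlap, and replicate 3 lay between the other ALP arrays. In every other Runx1 probe set replicate 3 was the lowest ALP array. The one plotted in the paper read 6916, 7818 and 6682 in MaSC and 4522, 3361 and 2579 in ALP. All 5 probe sets of Runx1 gave falls, of 1.86-fold to 2.71-fold, of which 2 passed when all probe sets were tested. Cbfb, its partner, was level (5422, 6488 and 4452 against 5515, 5339 and 5607, 0.03 ± 0.16, adjusted p = 0.928, and -0.15 under median centring), and Runx3 was too dim to be tested, at 19.2 to 47.7 in MaSC and 38.2 to 54.0 in ALP. Genes of the sorting antigens CD24, CD29 and CD61 did not pass by the probe set that stood for each. Itgb1, which encodes CD29, read 3337, 4012 and 4047 against 2923, 2957 and 3028 (adjusted p = 0.122). All 4 Itgb1 probe sets were lower in ALP, by 1.27-fold to 2.3-fold, and 1 passed when all probe sets were tested. Itgb3, for CD61, read 2209, 1385 and 2217 against 3577, 2452 and 2896 (adjusted p = 0.149), and Cd24a 15054, 14591 and 12908 against 14105, 15444 and 14088. Sox9 and Sox10, factors of progenitors, did not pass either (adjusted p = 0.234 and 0.884).

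Against the virgin luminal populations, tested in a fit over all 15 arrays that treats MaSC, LP and ML as independent although they share suspensions, ALP differed from LP in 915 genes (7.54%) and from ML in 4452 (36.7%), and in 482 (3.97%) and 4987 (41.1%) without ALP replicate 3. Elf5 averaged 4721 in LP and was 1.05-fold apart from ALP (adjusted p = 0.95), and no gene of the luminal progenitor or milk protein lists passed between ALP and LP with or without replicate 3 (3 and 4 at an unadjusted p under 0.05 in the limma fit, 1 and 4 without replicate 3). That they miss the threshold does not show equal levels. Against ML, 17 of 22 luminal progenitor genes were higher in ALP, where 21.1% of all genes were (18 and 20.2% without replicate 3). Some basal and smooth muscle genes stayed above LP. Acta2, at 374 to 626 in LP, was 11.5-fold higher in ALP (adjusted p = 9.55e-04, and 1.82e-04 without replicate 3), Krt5 was 9.43-fold higher (adjusted p = 0.0195, and 0.0254 without replicate 3), and 6 of 22 basal identity and 6 of 19 smooth muscle genes were higher in ALP (5 and 5 without replicate 3), where 3.58% of all genes were (1.75% without it, with 3.95% and 2.22% lower). Acta2 and Krt5 in ALP thus lay below MaSC and above LP. The pericyte and vascular smooth muscle list was also higher in ALP (7.99, 8.09 and 10.13) than in LP (6.59 to 6.76). Of its 5 genes tested, 1 was higher in ALP than in LP. Which cells gave the smooth muscle transcripts was not tested. Of the fibroblast genes 0 of 17 passed between ALP and LP by limma (1 at an unadjusted p under 0.05), and Dpt, dermatopontin, averaged 9263 in LP beside 8617, 8275 and 13416 in ALP. Endothelial genes did differ, with 11 of 12 higher in ALP than in LP (10 without replicate 3).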

How the data were processed

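Gene expression was measured on 15 Affymetrix arrays from RNA amplified and labelled with the NuGEN Ovation system. The authors deposited linear intensity values for each probe set in each array, made with dChip. Its version, its model and how background was handled are not stated in what was used here, and no detection calls were used, so a dim value bounds nothing by itself. Of 45101 probe sets, 34945 carried 1 gene symbol in the platform annotation. A probe set was kept if above its array's median in at least 3 of the 15 arrays, and the one with the highest mean log2 intensity stood for its gene, leaving 12143 of 18193 genes. Intensities were floored at 1 before log2.

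The 3 ALP and 3 MaSC arrays were fitted with limma 3.58.1 (lmFit and eBayes, R 4.3.3), since these groups spread more than the others (median SD 0.26 and 0.23 on the log2 scale, against 0.134 to 0.173). Tests were two-sided, p-values were adjusted by Benjamini-Hochberg over all genes tested, and a gene passed under 0.05. Differences are ALP minus MaSC, SE is on the log2 scale, and folds are antilogs. Every result was recomputed without ALP replicate 3. The number of arrays limits the precision. The fit was tested on simulated data. Promoter windows were searched in Python 3.11.15.

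Named genes were the 10 largest differences per direction (with 16 added) among genes that passed with and without ALP replicate 3 and whose groups did not overlap, skipping unnamed transcripts, up to 4 per list and the 5 highest t statistics per direction of at least 2-fold, and a panel of regulators and sorting antigens, 107 genes in all. A further 17 list members were analysed under every setting, and these and the other list members mentioned were named after their values were seen. Members and lists were chosen with earlier results of these data known. Alternatives covered the arrays fitted, the filter, the floor, 16 added, quantile and median scaling, array weights, a variance trend, the mean over probe sets, the replicate number as a block, each array left out and the methods' t-test.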

Additional observations from a re-analysis of the deposited data

How the results depend on the processing

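The 1349 genes that passed became 4665 with all 15 arrays, 5069 with array weights, 809 without a filter, 384 with the replicate number as a block, and 168 by the methods' t-test after adjustment (3472 at an unadjusted p of 0.05 or less). Leaving out 1 array gave 0 to 1836, with 0 for MaSC replicate 2. Genes at least 2-fold higher numbered 463, and 1150, 1153, 299 and 147 under all 15 arrays, array weights, no filter and the block (0 to 603 when 1 array was left out). Genes at least 2-fold lower numbered 503, and 794, 1024 and 237 under all 15 arrays, array weights and the block, and 795 with median centring (0 to 934 when 1 array was left out). Distinct list members higher numbered 66, and 167, 154, 37, 108 and 22 under all 15 arrays, array weights, no filter, the variance trend and the block (0 to 70). List members lower numbered 40, and 84, 107, 18, 66, 10 and 64 under the same settings and median centring (0 to 83). Without ALP replicate 3, 1836 genes passed, and 4365 with all other 14 arrays, a setting chosen after seeing the data. The 15-array fit treats MaSC, LP and ML as independent although they came from the same 3 suspensions. The causes were not tested.

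ALP and MaSC came from mice of different genotype, and their same-numbered arrays did not deviate together (r of -0.124, -0.029 and 0.06), so the block does not pair samples. Median centring moved the median of all genes from 0.07 to -0.10 and the share of calls higher in ALP from 44.8% to 34.3%. Of 121 named genes 7 reversed anywhere: Nrg2 without a filter, through another probe set (0.26), Cbfb under median centring, array weights and without MaSC replicate 3 (-0.15, -0.13 and -0.11, and up to 0.16 with other arrays left out), Gata3 under median centring (-0.08), Sox10 under median centring, the mean over probe sets and without MaSC replicate 1 or ALP replicate 2 (-0.15, -0.06, -0.01 and -0.03, and up to 0.11), Cd24a under median centring and without MaSC replicate 3 or ALP replicate 2 (-0.14, -0.03 and -0.01, and up to 0.08), and Krt18 and Krt8 under median centring (-0.05 and -0.01). Of these only Nrg2 had passed. Dim genes and the brightest ones, near the top of the scale, are measured least well.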
